A study of Mus musculus with 24 samples.

Results

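The mouse Hox genes of the Hoxa, Hoxb, Hoxc and Hoxd clusters were examined in 16 lists of CTCF and Rad21 binding sites from pro-B cells. Members were taken by symbol from the GENCODE vM1 annotation of mm9: 38 of the 39 genes named Hoxa to Hoxd followed by a number, with 10 in Hoxa, 10 in Hoxb, 9 in Hoxc and 9 in Hoxd. The remaining gene is not analysed here, and 21569 protein-coding genes off chromosome 12 served for comparison. A peak belonged to a gene when it overlapped the gene body extended by 5 kb on each side, so neighbouring genes often share a peak. Each cluster was also taken as a window from 20 kb before its first to 20 kb after its last member, on chromosomes 6 (Hoxa, 139 kb), 11 (Hoxb, 214 kb), 15 (Hoxc, 156 kb) and 2 (Hoxd, 137 kb).

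Hox genes encode homeodomain transcription factors that pattern the body axis. All genes of a mouse cluster are transcribed in one direction, with group 13 genes at one end and group 1 genes at the other, and genes with the same number in different clusters are paralogues. Cohesin, of which Rad21 is the kleisin subunit, extrudes chromatin loops, and CTCF bound to its motif halts that extrusion. CTCF sites inside Hox clusters are known in other tissues as borders between active and Polycomb-repressed chromatin. Cohesin is commonly found where CTCF is bound.

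All cells were a v-Abl transformed pro-B cell line carrying Emu-Bcl2 and deficient in RAG2, held for 4 days in 3 uM STI-571, an inhibitor of the Abl kinase. The parental line (no degron, no IAA) gave 3 CTCF and 3 Rad21 lists. A CTCFdegron line gave 3 CTCF and 3 Rad21 lists after 500 uM of the auxin IAA for 6 h, followed by the 4 days with STI-571 and IAA together. A Rad21degron line gave 2 Rad21 lists without IAA and 2 after the same IAA schedule. A degron is a tag through which auxin drives destruction of the tagged protein. The CTCF antibody came from Millipore and the Rad21 antibody (ab992) from Abcam. The CTCFdegron line without IAA and the parental line with IAA are not analysed here, so line and IAA cannot be told apart in the CTCF depletion comparisons, whereas the Rad21 depletion compares one line with and without IAA. Nothing in the labels says whether same-group replicates were separate cultures or whether a degron line is 1 clone, so p-values measure only the spread between these libraries. Per the labels, CTCF replicates 2 and 3 shared an input in the parental and in the CTCFdegron line, whereas replicate 1 had its own.

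The lists held 46657 to 52357 mouse peaks for CTCF in parental cells and 8215 to 15754 after CTCF depletion. For Rad21 they held 29724 to 67810 in parental cells, 15690 to 35224 after CTCF depletion, 22085 and 32913 in the Rad21degron line without IAA, and 3588 and 1384 with it. Human HCT116 chromatin had been added to 8 of the Rad21 libraries as a spike-in, and its peaks are not counted here. The files give peaks and not reads, so the read depth behind each list is unknown, and a missing peak means only that nothing passed the authors' threshold in that list. A pro-B gene set (Pax5, Ebf1, Cd79a, Cd79b, Vpreb1, Igll1 and Rag1) had a Rad21 peak in all 3 parental lists at each gene. With 3 libraries against 3 the smallest two-sided exact permutation p is 0.1, and with 2 against 2 it is 0.333, so no single comparison below could reach 0.05.

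The sequences under the strongest CTCF sites come first, because the comparisons turn on where these sites lie. Sites were numbered within each cluster from the group 13 side, counting every place with a peak in any of the 16 lists. A parental CTCF site was a place where overlapping peaks were present in all 3 parental CTCF lists. The windows held 24 of them, 21 within the span of the genes. In each cluster 1 strong site lay on the group 1 side of the group 9 gene, between it and the next member in Hoxb, Hoxc and Hoxd and over the 5′ end of the next member in Hoxa. That was noticed after the values were seen. Hoxa site 4 (chr6:52171395-52172125) covered the 5′ end of Hoxa7, its exon included, and its centre was 94 bp from the annotated start of that gene. Hoxb site 8 (chr11:96139892-96140568, intergenic) was centred 2990 bp before the start of Hoxb8. Hoxc site 3 (chr15:102817635-102818432) was centred 3020 bp before the start of Hoxc8, in an intron of the overlapping gene model Gm20398. Hoxd site 8 (chr2:74539848-74540845, intergenic) was centred 2326 bp before the start of Hoxd8. The best CTCF-like match of each, from the mm9 reference, is given 5′ to 3′ along its own strand with the 12 core letters in capitals:
Hoxa site 4 (chr6:52171799-52171828, minus strand): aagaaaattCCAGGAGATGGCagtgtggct
Hoxb site 8 (chr11:96140253-96140282, plus strand): gcacagtggCCGCTAGATGGCatccttgct
Hoxc site 3 (chr15:102818015-102818044, plus strand): aacaagtgaACGCGAGGTGGCgctgttgct
Hoxd site 8 (chr2:74540443-74540472, plus strand): cgcatttggCCACTAGAGAGCgctgttgct
All 4 best matches lay on the strand on which the Hox genes of that cluster are transcribed. That of Hoxc site 3 scored under the threshold given below, so its strand is not established. The matches shared 15 to 19 of 30 letters in pairs, and 6 to 9 of the 12 core letters. Each was picked as the best match to the same CTCF motif, so likeness in the core follows in part from the choice. Other sites were not compared in this way. The wider sequence of the 3 that overlap no exon is shown so that the flanks can be compared, 100 letters each:
Hoxb site 8 (chr11:96140218-96140317, plus strand): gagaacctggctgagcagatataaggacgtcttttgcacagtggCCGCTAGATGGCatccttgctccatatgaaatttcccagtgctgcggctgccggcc
Hoxc site 3 (chr15:102817980-102818079, plus strand): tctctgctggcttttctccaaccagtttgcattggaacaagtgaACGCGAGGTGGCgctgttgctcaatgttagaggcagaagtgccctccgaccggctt
Hoxd site 8 (chr2:74540408-74540507, plus strand): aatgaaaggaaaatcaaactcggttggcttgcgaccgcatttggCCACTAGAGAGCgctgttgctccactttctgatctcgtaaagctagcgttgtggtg

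The other sites that ranked highest in each cluster by fold enrichment in the parental CTCF lists are shown for contrast. Of these 11, 6 scored above the threshold given after them, and 4 of the 6 lay on the strand opposite to transcription. Their best matches were:
Hoxa site 2 (chr6:52207111-52207140, plus strand): agcttgtcaACACGAGGTGGCgcccttgat
Hoxa site 3 (chr6:52190531-52190560, minus strand): tcgcagccgCCACGAGATGGCgcactcccg
Hoxa site 5 (chr6:52161714-52161743, plus strand): cggcgacggCCACAGCGTGGCagcagcgag
Hoxb site 4 (chr11:96096411-96096440, minus strand): ctctcgcggCCGGCAGGGGTCactgtgtgg
Hoxb site 7 (chr11:96123058-96123087, minus strand): cgcgaccgaCCTCTAGGCGGCgccctggcg
Hoxb site 15 (chr11:96156003-96156032, minus strand): cccgaacggACGGTAGATGGCagcaaactg
Hoxc site 1 (chr15:102796994-102797023, plus strand): ccgaggcagCTGCTAGGTGGCgctgttact
Hoxc site 4 (chr15:102844124-102844153, plus strand): tccgagtcgGCACCAGGTGTCgctgtgagc
Hoxd site 3 (chr2:74501795-74501824, minus strand): ccgcgcttgGCGCTAGATGTCcctgcaagt
Hoxd site 5 (chr2:74511226-74511255, minus strand): gccaaacgcCCAGGAGATGGCgagcgtgct
Hoxd site 9 (chr2:74553969-74553998, plus strand): gagctttgtCCAGGAGGAGGCgctgtagga
Matches were scored with a 22-letter matrix built from CTCF sites outside the Hox windows, and 12 of the 24 Hox sites (50.0%) scored above a threshold of 11.67 bits that 5.00% of sequences 5 kb away passed. Among the other 32189 parental CTCF sites with sequence, 65.4% passed. Of the 12 Hox matches above the threshold, 5 lay along the direction of transcription and 7 against it, and in Hoxb the split was 1 and 5. Hoxc site 3 (10.28 bits), Hoxc site 1 (5.75 bits) and Hoxc site 4 (10.96 bits) all scored under the threshold, as did Hoxa site 5 (6.98 bits), Hoxd site 3 (0.95 bits) and Hoxd site 5 (11.48 bits), so the strand of these is not established. Searched as letters on both strands, the core CC, any 3 letters, AG, any 2 letters and GGC was present within 200 bp around the centre of 9 of 24 Hox sites (37.5%, exact 95% interval 18.8 to 59.4%, counting error only), of 41.2% of the other sites and of 3.66% of sequences 5 kb away. Over whole sites it was present in 41.7% of Hox and 53.9% of other sites.

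In parental cells, CTCF and Rad21 peaks were spread unevenly along the clusters. They left a long stretch empty at an end of each window, and at both ends in Hoxc. CTCF peaks numbered 29, 26 and 25 in the 4 windows, and Rad21 peaks 31, 22 and 15. CTCF peaks were 41.3 ± 3.23 per Mb (SD, n = 3) in the windows and 18.4 ± 1.15 per Mb over the mouse genome, a ratio of 2.25 ± 0.0374. Rad21 peaks were 35.1 ± 12.4 per Mb in the windows and 17.8 ± 7.25 over the genome, a ratio of 2.01 ± 0.109. Parental Hoxb held the most CTCF peaks (13, 10 and 11), followed by Hoxd (7, 7 and 6), Hoxa (5, 5 and 5) and Hoxc (4, 4 and 3).

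**Figure D1:**
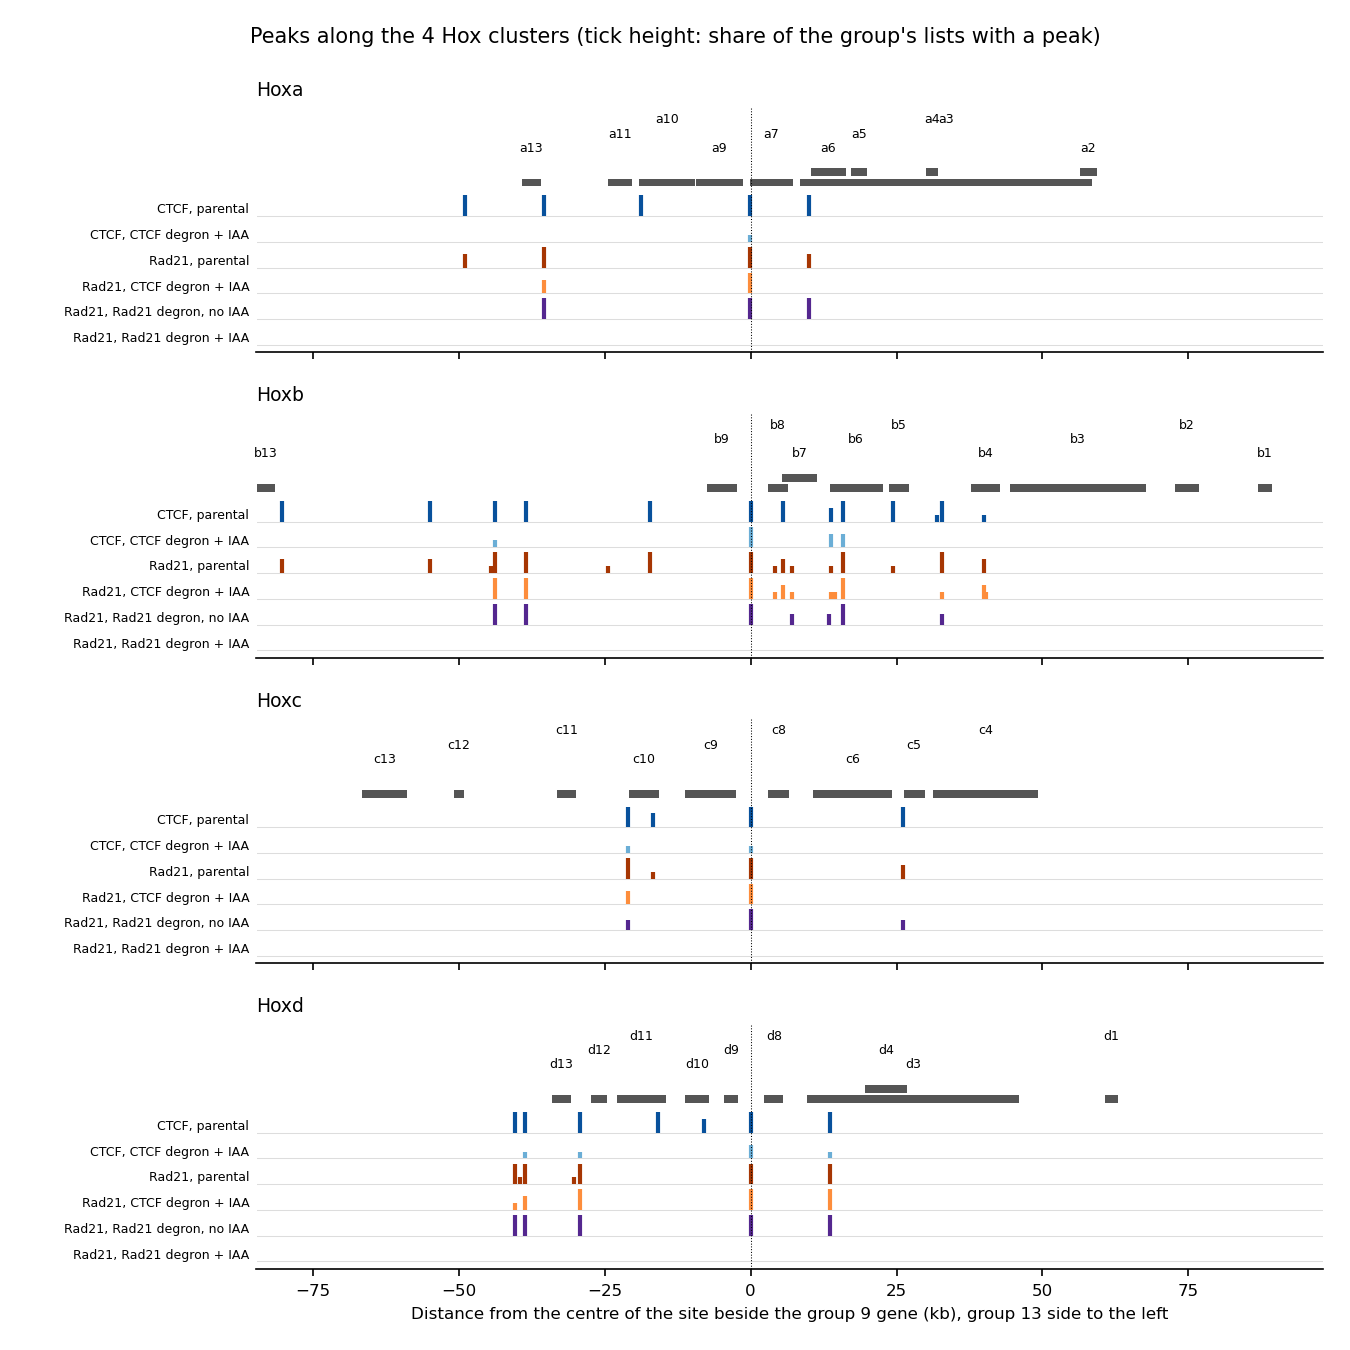
Peaks along the 4 Hox clusters, drawn by distance in kb from the centre of the site beside the group 9 gene, with group 13 to the left and grey boxes for genes. Ticks mark places with a peak, and tick height is the share of the 3 or 2 lists of that antibody and cell group that had it. CTCF and Rad21 coincide at distance 0 in every cluster. The right end of Hoxa, Hoxb and Hoxd and both ends of Hoxc hold no tick, and the row for Rad21 depletion is empty.

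The longest stretch without a peak in any of the 16 lists was 69.1 kb in Hoxa, 68.9 kb in Hoxb, 65.2 kb in Hoxc and 68.8 kb in Hoxd. In Hoxa, Hoxb and Hoxd it was the end that carries the low-numbered genes, and in Hoxc the end with Hoxc11, Hoxc12 and Hoxc13. The other end of the Hoxc window, with Hoxc4, was also empty, over 42.9 kb. Each of these stretches includes the 20 kb of flank outside the genes. Hoxa2, Hoxa4, Hoxa5, Hoxb1, Hoxb2, Hoxc11, Hoxc12, Hoxc13, Hoxd1 and Hoxd4, 10 of 38 members, had no peak within 5 kb in any list. None of the 4 measured members of groups 1 and 2, which act in the hindbrain, had one. Hoxc4 had a single Rad21 peak in parental replicate 1. Genes without a peak were common elsewhere too. In the comparison of CTCF peaks after CTCF depletion, 14930 of 21569 genes and 27 of 38 members had a peak in at least 1 list. For Rad21 peaks after CTCF depletion these were 15021 of 21569 genes and 24 of 38 members.

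A CTCF peak within 5 kb was present in all 3 parental lists at 26 members and a Rad21 peak at 16. The matching counts over all genes are not reported here. In groups 8 and 9 every member, Hoxb8, Hoxc8, Hoxd8, Hoxa9, Hoxb9, Hoxc9 and Hoxd9, had both in every parental list. Hoxb7 had 3, 2 and 3 CTCF peaks within 5 kb and 6, 3 and 1 Rad21 peaks. Hoxb6 had 3, 2 and 3 CTCF peaks, and Hoxb8 had 2 in each list. Hoxd13, a limb and genital gene at the end of its cluster, had 2 CTCF peaks in each list and Hoxa7 had 2 in each, and no other member of their clusters had more in any list. In Hoxc the most were 2, 2 and 1, at Hoxc10. Hoxa10, Hoxa11, Hoxd10 and Hoxd11 had CTCF in every parental list but no Rad21 peak in any of the 10 Rad21 lists.

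**Figure D2:**
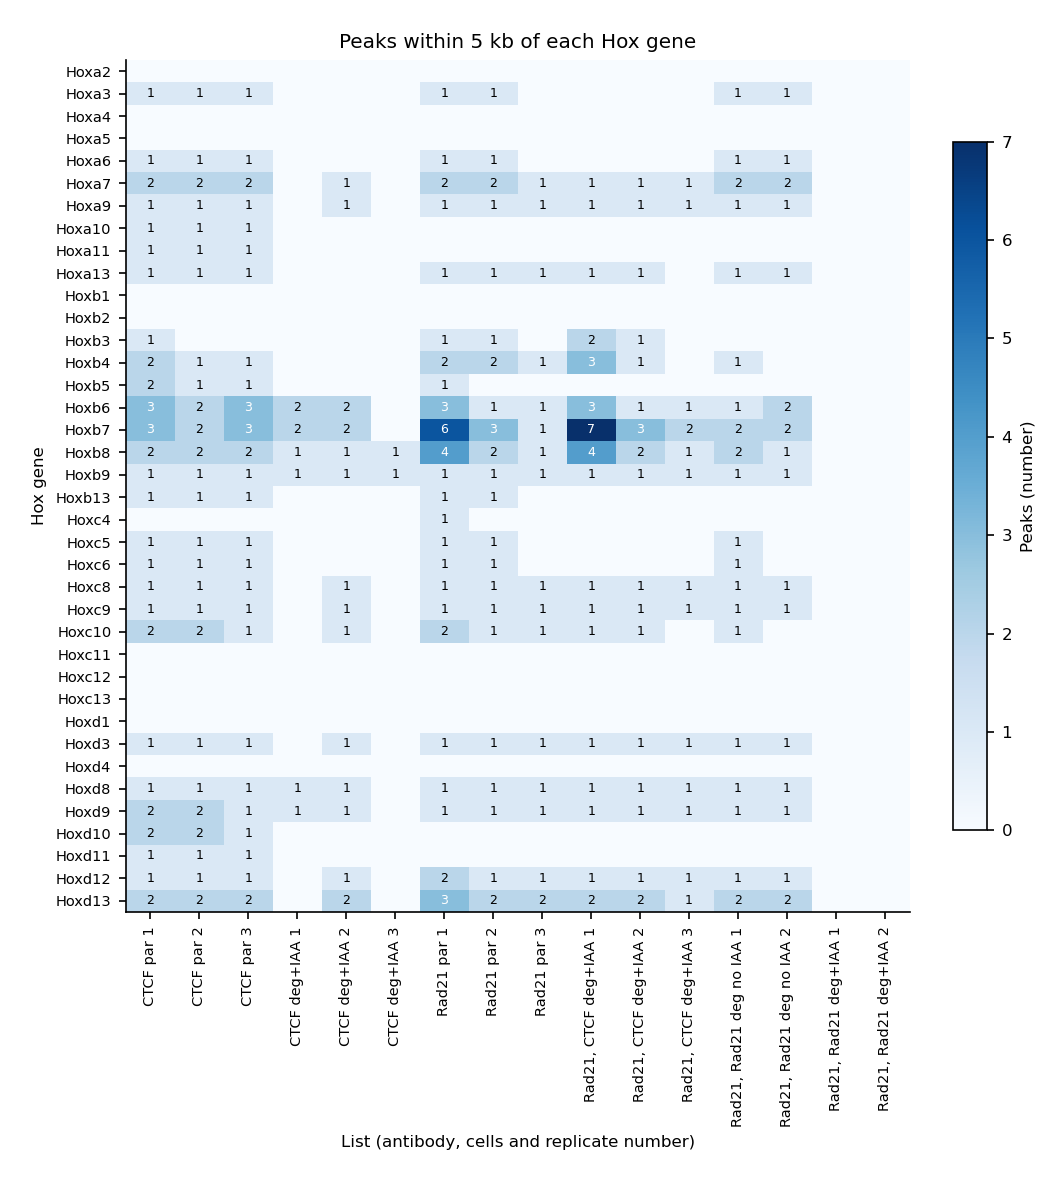
Number of peaks within 5 kb of each of the 38 Hox genes (rows) in each of the 16 lists (columns, by antibody, parental (par) or degron (deg) cells, IAA and replicate), with empty cells for 0. Hoxb7 reaches 7 peaks, 10 genes are empty throughout, and the last 2 columns hold no peak at any gene.

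The parental Rad21 sites, places with a peak in all 3 parental Rad21 lists, numbered 15 in the windows, and each of the 15 overlapped a parental CTCF site. Outside the windows 80.7% of 25012 such sites did. CTCF sites without any parental Rad21 peak were 2: Hoxa site 3 (chr6:52190336-52190657, in the Hoxa10 untranslated exon) and Hoxd site 6 (chr2:74524285-74524735, in the Hoxd11 untranslated exon). At Hoxa site 3 the CTCF fold enrichment, the authors' own value per peak over background, was 6.68, 5.38 and 6.53 in the parental lists. Fold enrichment at Hoxd site 6 was 5.13, 5.05 and 6.97. Both lay below the sites beside group 9.

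Hoxa site 4 had CTCF fold enrichments of 9.63, 9.63 and 13.5 in parental replicates 1 to 3. Hoxb site 8 had 9.10, 9.19 and 11.2. Hoxc site 3 had 10.6, 7.79 and 9.17. Hoxd site 8 had 7.56, 11.9 and 14.0. Ranked by fold within each whole list and averaged over the 3 lists, these sites stood at percentiles 93.7, 89.6, 84.4 and 91.8 in that order, against a median of 76.3 over the 24 Hox sites and 65.0 over the other CTCF sites. Hoxb site 15, in an intron of Hoxb6 (chr11:96155677-96156469), stood at 92.0. For Rad21, Hoxb site 8 was the strongest peak of the Hox windows by fold in each of the 8 Rad21 lists that held any, with 20.5, 15.8 and 9.24 in the parental lists.

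After CTCF depletion most Hox CTCF peaks were gone, to a degree that varied between the 3 depleted lists. The windows held 4, 11 and 1 CTCF peaks in depleted replicates 1, 2 and 3, against 29, 26 and 25. No depleted list reached the lowest parental one. Parental cells had a mean of 26.7 ± 2.08 (SD, n = 3) and depleted cells one of 5.33 ± 5.13 (SD, n = 3), a mean log2 difference of the numbers of -2.91, with p = 0.1 in the exact permutation test. As a ratio of the 2 means this was 5.00 times fewer, and 7.54 times from the mean of the logs. Without depleted replicate 2 the latter was 13.3 times (log2 difference -3.73) and without depleted replicate 3 it was 4.01 times (-2.004). Replicate 2 had about as many mouse peaks (15754) as replicate 1 (15510) but more Hox peaks. As a percentage of each list, Hox peaks were 0.0546 ± 0.00091% in parental lists and 0.0359 ± 0.0301% in depleted lists (exact permutation p = 0.4), and these groups overlapped. With every list shortened to the length of the shortest by fold enrichment the log2 difference was -1.50 (exact permutation p = 0.3).

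**Figure D3:**
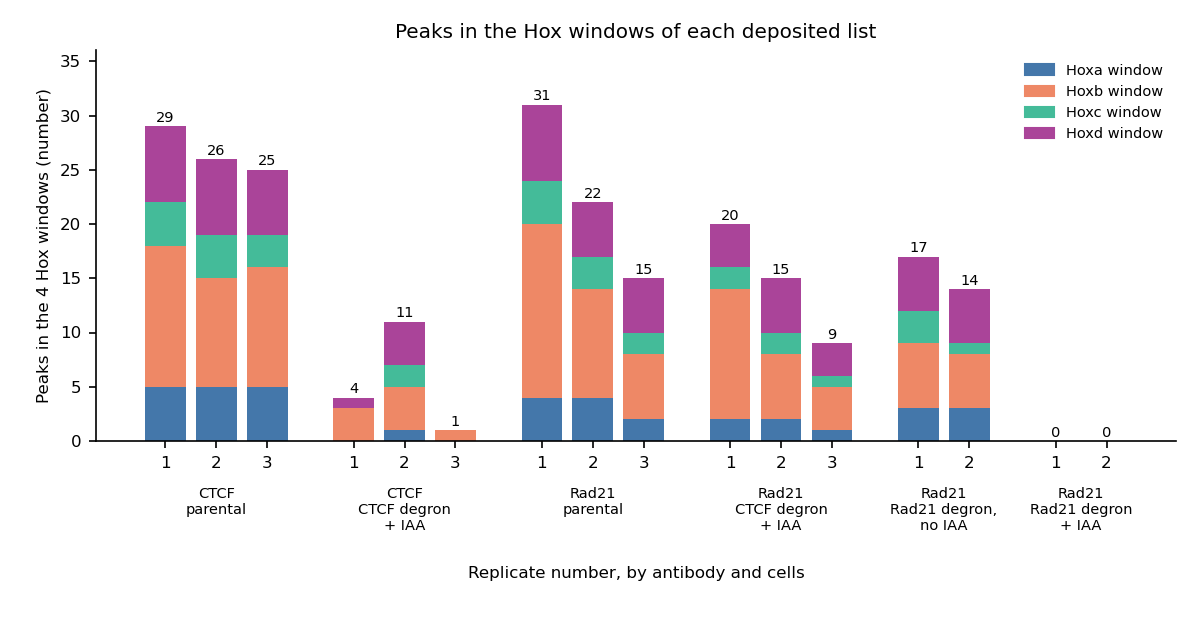
Peaks in the 4 Hox windows (number, stacked by cluster) in each of the 16 lists, grouped by antibody and cells, with the total above each bar. CTCF totals are 25 to 29 in parental and 1 to 11 in depleted lists, Rad21 totals overlap between parental and CTCF-depleted lists, and both Rad21-depleted lists are at 0.

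Each cluster had fewer CTCF peaks in every depleted list than in every parental list. Means were 5.00 and 0.333 in Hoxa, 11.3 and 2.67 in Hoxb, 3.67 and 0.667 in Hoxc, and 6.67 and 1.67 in Hoxd. Each had an exact permutation p of 0.1, or 0.3 after Benjamini-Hochberg adjustment over the 12 cluster comparisons.

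By gene, 27 members had a CTCF peak in at least 1 of the 6 lists. A gene was called lower when every depleted list had fewer peaks than every parental one, and lost when every parental list had a peak and no depleted list did. Of the 27, 14 were lower (51.9%) where the background over all genes with a peak was 58.5%, and 12 were lost (44.4%) where it was 27.6%. None was higher (background 0.275%), and none had peaks in every depleted list and in no parental list (background 0.221%). The lost members were Hoxa3, Hoxa6, Hoxa10, Hoxa11 and Hoxa13, Hoxb4, Hoxb5 and Hoxb13, Hoxc5 and Hoxc6, and Hoxd10 and Hoxd11. Many share sites: Hoxa10 with Hoxa11, Hoxa3 with Hoxa6, Hoxc5 with Hoxc6 and Hoxd10 with Hoxd11. Hoxa7 (2, 2 and 2 peaks against 0, 1 and 0) and Hoxb8 (2, 2 and 2 against 1, 1 and 1) were lower without being lost. Without depleted replicate 2 the lost members numbered 20 of 27, and the background was 35.0%.

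At the level of sites, 14 of the 24 had no CTCF peak in any depleted list (background over all CTCF sites 71.7%), 7 had one in 1 list, 2 in 2 lists and 1 in all 3 (background 12.9%). The site with CTCF in every depleted list was Hoxb site 8, between Hoxb9 and Hoxb8. Its fold enrichment was 6.11, 10.6 and 5.03 in depleted replicates 1 to 3, the highest of the 4 and 11 Hox peaks in replicates 1 and 2 and the only one in replicate 3. Hoxb site 15 in Hoxb6 kept a peak in replicates 1 and 2 (4.35 and 4.28), as did Hoxd site 8 between Hoxd9 and Hoxd8 (4.95 and 8.73). All 4 sites beside group 9 had a CTCF peak in depleted replicate 2, which held 7 of the 24 sites that no other depleted list held. Without that replicate 21 sites had no CTCF peak.

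Hox CTCF sites were kept more often than other CTCF sites in 1 depleted list and less often in 2. Depleted replicates 1, 2 and 3 kept 12.5, 41.7 and 4.17% of the 24 Hox sites and 20.9, 25.8 and 14.4% of the 33691 other mouse sites. Hox sites were below the others in replicates 1 and 3 and above in replicate 2. The mean difference was -0.921 percentage points (SD 14.5, n = 3, exact sign-flip permutation p = 1, smallest possible 0.25), and its sign turned under several alternatives.

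Rad21 remained at most of its Hox sites after CTCF depletion. The windows held 20, 15 and 9 Rad21 peaks in depleted replicates 1, 2 and 3, against 31, 22 and 15 in parental cells, and the groups overlapped. Means were 22.7 ± 8.02 and 14.7 ± 5.51 (SD, n = 3 each), a log2 difference of -0.64 (exact permutation p = 0.3). Taken between same-numbered libraries, the log2 differences were -0.63, -0.55 and -0.74 (exact sign-flip permutation p = 0.25, the smallest possible). As a percentage of mouse peaks the Hox windows took 0.0488 ± 0.00264% in parental and 0.0573 ± 0.000515% in depleted lists (exact permutation p = 0.1, groups apart). When every list was shortened to the shortest, that difference turned to -0.0149 percentage points (exact permutation p = 0.3).

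By gene, 24 members had a Rad21 peak in some list of this comparison, and none was lower or lost, where the background was 18.3% lower and 7.29% lost. None was higher (background 0.220%) or had Rad21 only in the depleted lists (background 0.140%). Parental replicate 3, the shortest parental list, decides this. Without it 5 of 24 members were lost (Hoxa3, Hoxa6, Hoxb13, Hoxc5 and Hoxc6), a larger share than the background of 11.9%. Hoxa3 and Hoxa6 share a site, as do Hoxc5 and Hoxc6. Rad21 peaks were present in every depleted list at 13 members: Hoxa7, Hoxa9, Hoxb6, Hoxb7, Hoxb8, Hoxb9, Hoxc8, Hoxc9, Hoxd3, Hoxd8, Hoxd9, Hoxd12 and Hoxd13. All members of groups 7, 8 and 9 were among them. Hoxb7 had 7, 3 and 2 Rad21 peaks in the depleted lists, beside 6, 3 and 1 in the parental ones.

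Of the 15 parental Rad21 sites in the windows, 9 had Rad21 in all 3 depleted lists (background over all Rad21 sites 35.5%), 3 in 2 lists, 2 in 1 list and 1 in none (background 41.5%). The 9 were Hoxa site 4, Hoxb sites 4, 5, 8 and 15, Hoxc site 3 and Hoxd sites 5, 8 and 9, so all 4 sites beside group 9 were among them. Hoxb site 7, in the non-Hox gene Gm53 between Hoxb13 and Hoxb9, was the one without. At Hoxb site 8 the Rad21 fold enrichment in the depleted lists was 14.0, 11.7 and 6.57, and at Hoxd site 8 it was 9.56, 9.11 and 6.37. These were the highest and the next highest of the Hox windows in every depleted Rad21 list. Hoxa site 4 had 5.89, 6.27 and 3.99, and in replicate 3 it was the weakest of the 9 Hox peaks. Without depleted replicate 3, 12 sites had Rad21 in every list.

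Each depleted list kept a higher percentage of the Hox Rad21 sites than of other Rad21 sites. Replicates 1, 2 and 3 kept 86.7, 86.7 and 60% of the 15 Hox sites and 56.8, 52.6 and 36.02% of the 25012 others. The difference was 29.3 percentage points (SD 5.09, n = 3) (exact permutation by sign flips, p = 0.25, and 3 libraries can go no lower). It was 17.3 points without parental replicate 3, 15.9 points with peaks of q of 0.001 or less, 15.3 points over sites of at least 1 parental list and 10.2 points when at least 50% of a site had to be covered. Hox Rad21 sites stood higher by fold within the parental lists (median percentile 82.0) than the others (67.4), and over the sites at or above the median of that rank the difference was 38.3 points. Restricted to Rad21 sites at parental CTCF sites it was 35.4 points. The restrictions by rank and to CTCF sites were not planned in advance.

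**Figure D4:**
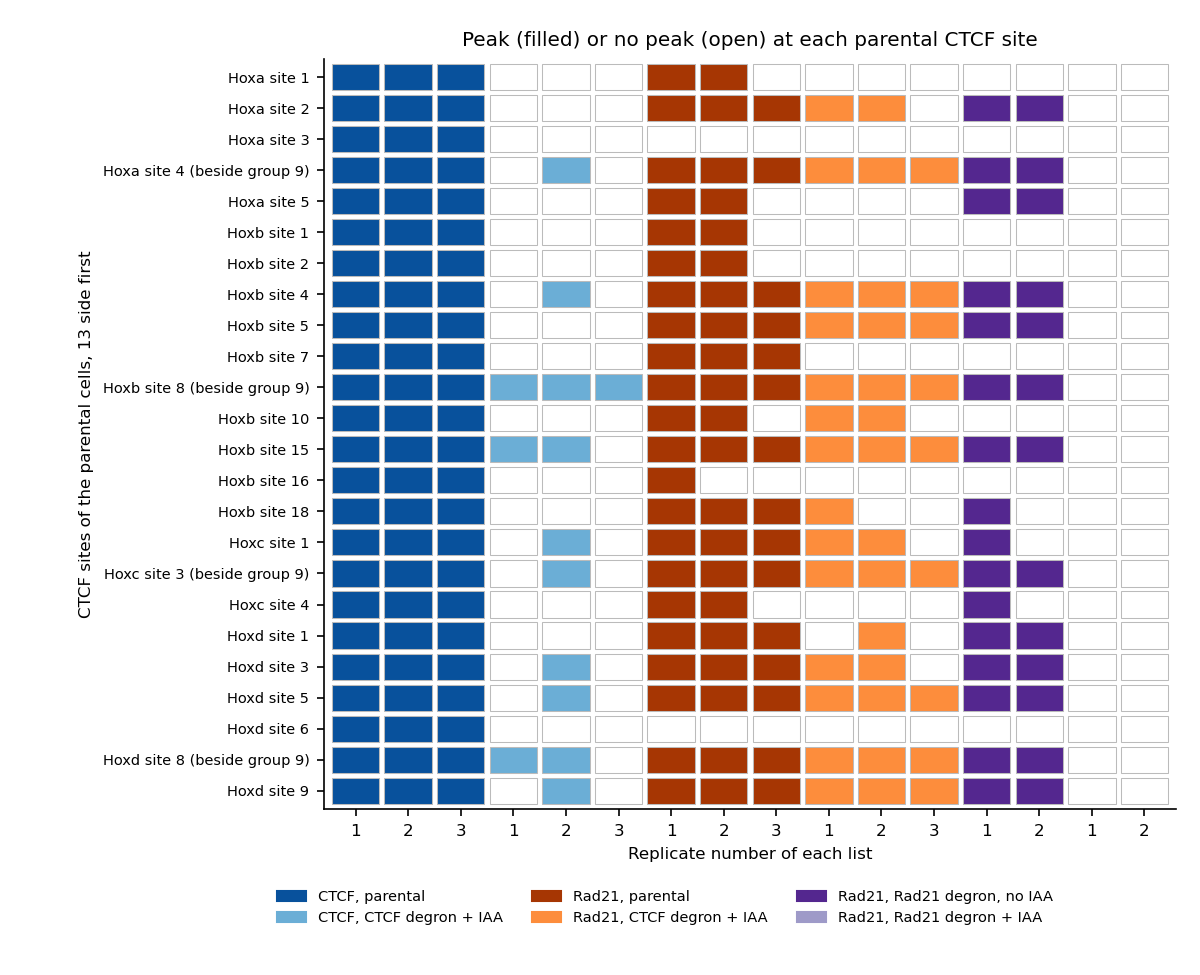
Presence (filled) or absence (open) of a peak at each of the 24 parental CTCF sites of the Hox windows (rows, from the group 13 side) in each of the 16 lists (columns, replicate numbers, coloured by antibody and cells). Hoxb site 8 is filled in 14 lists, Hoxa site 3 and Hoxd site 6 only in the 3 parental CTCF lists, and the 2 right-most columns are open throughout.

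Rad21 sites at parental CTCF sites were then divided by the CTCF peaks left there in the CTCF-depleted lists. All 15 Hox sites lay at such a site. Of the other Rad21 sites, 4831 (19.3%) did not, and these kept Rad21 in 73.7 ± 17.7% of cases per list (SD, n = 3 lists). With CTCF left in none of the 3 CTCF lists, 5 Hox sites kept Rad21 in 46.7 ± 23.1% of cases per list (SD, n = 3 lists), and 13222 other sites in 17.2 ± 8.14%. With CTCF left in 1 list, 7 Hox sites kept 90.5 ± 16.5% and 2167 others 78.9 ± 24.3%. At each of these 7 Hox sites that list was depleted replicate 2. Without it they would count among the Hox sites with no CTCF left, so the division of the Hox sites rests on that list. The 3 Hox sites with CTCF left in 2 or 3 lists kept Rad21 in every depleted list, and the corresponding other sites kept 92.9 ± 10.3% and 97.2 ± 3.66%. The divided sites with CTCF left in no list were 33.3% of all Hox Rad21 sites and 52.9% of all 25012 others. That total of 25012 includes the 4831 sites away from parental CTCF sites, which were not divided. The Hox share depends on depleted replicate 2 of the CTCF lists. Hoxb site 5, between Hoxb13 and Hoxb9 (chr11:96101409-96102309), had no CTCF peak in any depleted list and Rad21 in all 3.

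The 2 antibodies were compared directly through the log2 ratio of depleted to parental Hox peaks in same-numbered libraries, although pairing by number is not established. CTCF ratios were -2.86, -1.24 and -4.64, and Rad21 ratios -0.63, -0.55 and -0.74. Every CTCF ratio lay below every Rad21 ratio. The difference of the means, which does not depend on how libraries are matched, was -2.27 (exact permutation p = 0.1), and -1.41 without replicate 3 of the CTCF lists. Over all 36 ways of matching the libraries the exact permutation p was 0.1 to 0.2, and in 16 of them every CTCF ratio was below every Rad21 ratio. The human spike-in differed too: no CTCF list and 2 of 3 Rad21 lists per group had it. Per the labels, the inputs shared by CTCF replicates 2 and 3 did carry the spike-in. With only the spike-in libraries for Rad21 the difference was -2.27 (exact permutation p = 0.2). Because no CTCF list had the spike-in, its part in the difference was not tested. Over the whole mouse genome CTCF also fell further than Rad21. Mean peaks per Mb were 18.4 in parental and 4.96 in depleted lists for CTCF, and 17.8 and 9.65 for Rad21. With the lists of each antibody shortened to its shortest, the Hox difference was -1.21 (exact permutation p = 0.1). Whether the Hox difference exceeds that of the genome was not tested.

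Rad21 depletion left no Rad21 peak in the Hox windows. In the Rad21degron line the windows held 17 and 14 peaks without IAA and 0 and 0 with it, so the groups did not overlap (mean 15.5 ± 2.12 against 0, n = 2 each, exact permutation p = 0.333). The treated lists were short: at the untreated Hox share of 0.0575% of mouse peaks, lists of 3588 and 1384 peaks would hold 2.06 and 0.796 Hox peaks. Human spike-in peaks in the same libraries numbered 11861 and 14878 without and 5603 and 5481 with IAA.

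Of 20 members with a Rad21 peak in this comparison, 16 were both lower and lost (80%), where the background was 62.0% lower and 54.3% lost. None was higher (background 0.390%) or had Rad21 only with IAA (background 0.280%). They were Hoxa3, Hoxa6, Hoxa7, Hoxa9 and Hoxa13, Hoxb6, Hoxb7, Hoxb8 and Hoxb9, Hoxc8 and Hoxc9, and Hoxd3, Hoxd8, Hoxd9, Hoxd12 and Hoxd13. With genes extended by 1 kb in place of 5 kb, 6 of 10 members with a peak were lost (60%), where the background was 51.5%. None of 13 Rad21 sites of the untreated Hox windows was kept in any treated list (background over all sites 92.6% lost in both and 2.68% kept in both), against 7.05 and 3.03% of the 18727 other sites (difference -5.04 percentage points, exact permutation by sign flips, p = 0.5, below which 2 libraries cannot go). Hoxb site 8 had fold enrichments of 10.3 and 7.77 without IAA, the highest of the Hox windows in both untreated lists, and no peak with it.

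Genes that act with or on Hox genes were counted by the same calls. Of 21 Polycomb and Trithorax regulators, which set repressed and active Hox chromatin, 13 had fewer CTCF peaks in every depleted list (background 58.5% of genes with a peak), and 3 lost all of them (background 27.6%). Those 3 were the Polycomb genes Ezh1 (6, 7 and 5 peaks in parental lists), Bmi1 (3, 1 and 1) and Ring1 (3, 1 and 1). Of 8 TALE genes, whose homeodomain proteins bind DNA with Hox proteins, 3 of 7 with a CTCF peak lost every one (background again 27.6%): Pknox2 (7, 7 and 7), Pbx4 (3, 2 and 5) and Meis3 (2, 1 and 1). Of the caudal genes, upstream activators of Hox genes in the embryo, Cdx1 (1, 1 and 2) and Cdx2 (1, 1 and 1) lost CTCF and Cdx4 had no CTCF peak. Evx2, beside Hoxd13, had 2, 2 and 2 CTCF peaks against 0, 1 and 0, and Evx1 had none.

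For Rad21 after CTCF depletion, 3 of the 21 regulators were lower (Dot1l, Ezh1 and Jarid2) and none was lost, none of the 7 TALE genes with a peak was lower (background 18.3% lower and 7.29% lost), and Cdx1 was lost (1, 1 and 1 peaks against 0). Gm53, which overlaps the Hoxb window, was lost for CTCF (1, 1 and 1) and for Rad21 (2, 1 and 1). After Rad21 depletion, 13 of 18 regulators with a peak were lower (background 62.0%) and 10 were lost (background 54.3%): Bmi1, Cbx2, Cbx7, Cbx8, Dot1l, Ezh1, Ezh2, Men1, Phc2 and Rbbp5. Meis2, Pbx4 and Pknox2 were lost among 5 TALE genes with a peak, and Evx2 (2 and 2) and Gm14396 (1 and 1) among the genes beside the clusters. No gene of these lists was higher in any comparison.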

How the data were processed

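Each library's peak list was deposited separately, with no header. Per the submitters' processing notes, Bowtie2 2.2.8 and SAMtools 1.8 were used with mm9 and hg19, and per the labels the mouse reference was an mm9 hybrid. The peak caller, its threshold and its use of the 8 inputs are not given in the sources used here. The authors' deposited values per peak are a score, a fold enrichment (a ratio) and −log10 of p and q. Fold enrichment ranked and filtered peaks within a list, −log10 q served 1 alternative, and the score was not used. Chromosome 12 peaks run past the mm9 reference and were left out of gene and sequence counts, while chromosomes 2, 6, 11 and 15 fit it. Human peaks were left out.

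Peaks were counted with Python 3.11.15 and numpy 2.4.6, with an overlap of 1 bp. Exact two-sided permutations compared libraries on log2 numbers. For Rad21 depletion, where lists held 0, and for single clusters the scale was log2(number + 1), for the former in place of the planned log2(number). Sign flips over libraries tested the percentage kept. Correlations of deviations over genes between same-numbered libraries were 0.120, -0.0267 and 0.0787 for CTCF and 0.0145 and 0.0145 for Rad21 depletion. For Rad21 after CTCF depletion they were 0.217, 0.0806 and 0.156, above those of differently numbered libraries (-0.167 to 0.0161). Some pairing by number is possible there, and the main tests do not use it. At most 0.434% of the peaks of 2 replicate lists were identical. The scripts were tested on simulated data.

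Genes named with values are the members with the most parental CTCF peaks (up to 3 a cluster), those with no peak and those called lost, plus genes of the other lists called lost. Sequences shown are the best match at up to 4 CTCF sites a cluster by rank. Members and lists were chosen with earlier results of these data known. Some genes of the planned lists are not reported here. Alternatives were a q and a fold threshold, shortened lists, other flanks and overlaps, joined peaks, left-out libraries, the spike-in libraries alone and a replicate block.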

Additional observations from a re-analysis of the deposited data

How the results depend on the processing

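Among 205 recalculations, the direction of the number of Hox peaks (38 recalculations) and of Hox genes with a peak (38) held in each. Differences between libraries could not pass 0.05 at these group sizes, so holding a direction says little of stability. The CTCF percentage kept, Hox minus other sites, turned from -0.921 to 0.716 points with fold enrichment of 4 or more, to 0.27 with no flank, to 3.26 over sites of at least 1 parental list and to 1.46 over sites at or above the median rank (an alternative chosen after seeing the data). Leaving out 1 library each gave -9.31 to 3.71 points for it. The cause was not tested. The Rad21 percentage of mouse peaks after CTCF depletion turned from 0.00856 to -0.0149 points with shortened lists. Lost members, with 1 library left out, ranged from 12 to 20 for CTCF (20 without depleted replicate 2), from 0 to 5 for Rad21 after CTCF depletion (5 without parental replicate 3) and from 16 to 20 after Rad21 depletion. With genes extended by 1 kb, 6 of 10 were lost after Rad21 depletion. A replicate block left each mean as it was and gave an exact sign-flip permutation p of 0.25 for the numbers of CTCF (-2.91) and Rad21 (-0.64) peaks after CTCF depletion and 0.5 after Rad21 depletion (-4.04), each the smallest it allows. The letter motif was present in 41.7% of whole Hox and 53.9% of whole other sites. A stricter form was present in 25% and 33.9% near the centre and in 29.2% and 43.1% over whole sites. Read depth is unknown, so a list's length, which its depth may limit, cannot be separated from binding.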

Other observations

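Places in the Hox windows that were no parental CTCF site numbered 14 of 38, and most were in Hoxb. Hoxb site 13, at the start of Hoxb6, over an untranslated exon (chr11:96153640-96154535), had CTCF in 2 of 3 parental lists and in 2 of 3 CTCF-depleted lists. Hoxb site 19, in the coding exon of Hoxb4 (chr11:96179905-96180448), had CTCF in 1 parental list and Rad21 in 2 parental and 2 CTCF-depleted lists. Hoxb site 9 in Hoxb8 and Hoxb site 11 in Hoxb7 had no CTCF peak in any list, and each had Rad21 in 1 parental and 1 CTCF-depleted list. A peak in a single list was all that 8 of the 38 places had.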
